A study of Homo sapiens with 12 samples.

Results

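The genes described here are members of the BCL2 family, whose proteins decide whether a cell keeps or opens its mitochondrial outer membrane. They are BCL2, MCL1, BCL2L1, BCL2L11, PMAIP1, BBC3, BAK1, BAX, BID and BAD, taken as every probe set of the array that the platform annotation pairs with the symbol of 1 of them and of no other gene. Of these 10 genes, 9 had such probe sets, 32 in all, among 19775 genes on the array. BBC3, the gene of the BH3-only protein PUMA, was paired only with 1 probe set that is listed together with other genes, so no value is given for it. BCL2L11 had 7 probe sets, MCL1 6, BCL2 and BCL2L1 4 each, BID and BAD 3 each, BAX and PMAIP1 2 each, and BAK1 1.

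RNA of H929 cells was hybridised to 12 arrays, 3 for each of 4 groups. H929 is a cell line established from multiple myeloma, a malignancy of the plasma cells that secrete antibody. Cells of the infected arm carried shBCL9, a short hairpin RNA against BCL9, a coactivator of beta-catenin in Wnt signalling, or shGFP, a hairpin against green fluorescent protein, and in both groups GFP-positive cells were collected by flow cytometry. In the transfected arm the cells received miR-30, given in the labels as human miR-30a, b, c, d and e without a statement on whether they were mixed, or the worm microRNA cel-miR-67, and no sort is named. The labels name no separate cultures for the 3 arrays of a group, no time after treatment and no clone, so the p-values rest on a spread among arrays that may be no more than technical.

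Anti-apoptotic members such as BCL2, MCL1 and BCL2L1 (BCL-XL) hold the pore-forming effectors BAX and BAK1 in check. BH3-only proteins release that check: BCL2L11 (BIM) and BID bind most anti-apoptotic members, PMAIP1 (NOXA) binds mainly MCL1, and BAD binds BCL2 and BCL-XL. Plasma cells and many myeloma cells depend on MCL1, a protein with a short half-life.

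The microRNAs of the transfected arm act through their seed, bases 2 to 8, and are shown because they define that treatment and because BCL2L11 has been described as a target of miR-30 members in other cells. Mature human sequences from RefSeq (GRCh38.p14 annotation) were held for 3 of the 5 named members, with the seed in capitals, and all 3 have the same seed. hsa-miR-30b and hsa-miR-30d are named only.
hsa-miR-30a-5p: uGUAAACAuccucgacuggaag
hsa-miR-30c-5p: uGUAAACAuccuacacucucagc
hsa-miR-30e-5p: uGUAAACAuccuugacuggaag

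Values are log2 intensities from the robust multi-array average (RMA), so a difference of 1 is 2-fold, and values of different probe sets cannot be set against each other. Array medians lay between 5.46 and 5.53, and arrays of 1 group correlated at r = 0.996 to 0.997 over all probe sets. BCL9 itself measured 7.73, 7.61 and 7.85 in the shBCL9 arrays, against 7.88, 7.90 and 7.88 in the shGFP arrays. That difference of -0.15 did not pass the test (adjusted p = 0.107), although the groups did not overlap. In the miR-30 arrays BCL9 measured 7.99, 8.05 and 7.83, against 7.82, 7.86 and 7.79 in the cel-miR-67 arrays (0.14, adjusted p = 0.338). The 3' minus 5' signal of ACTB, a measure of RNA integrity and labelling, was 1.67 ± 0.08 in shBCL9 arrays and 1.30 ± 0.11 in shGFP arrays, and 2.07 ± 0.01 in miR-30 arrays and 2.16 ± 0.09 in cel-miR-67 arrays (SD, n = 3 each). The same measure for GAPDH was 0.13 ± 0.02 in shBCL9 and 0.14 ± 0.02 in shGFP arrays, with overlap. It was 0.20 ± 0.04 in miR-30 and 0.18 ± 0.04 in cel-miR-67 arrays. The 18S rRNA signal was 13.23 ± 0.02 in shBCL9 arrays and 12.38 ± 0.07 in shGFP arrays, and 12.64 ± 0.04 in miR-30 arrays and 12.50 ± 0.05 in cel-miR-67 arrays, without overlap in either arm, and its part in the results was not tested. All 8 plasma cell markers were measured above the level required for testing. Of the markers of other cell types, MS4A1 (B cells), CD2 and CD3G (T cells), CD14, LYZ and MPO (myeloid cells), and EPCAM and COL1A2 (epithelium and stroma) were not. The rest were above it: 3 of 4 B cell, 3 of 5 T and NK cell, 2 of 5 myeloid, 2 of 2 erythroid and 3 of 5 stromal and epithelial markers. Among these were PAX5, CD3D, CD3E, ITGAM, HBB and VIM. The summed linear intensity of the plasma cell markers was 54147 to 57472 in shBCL9 arrays and 53995 to 58899 in shGFP arrays. Single markers moved within that sum: SDC1 (0.88, adjusted p = 4.71e-07), CD38 (0.71, adjusted p = 1.12e-06) and SLAMF7 (0.60, adjusted p = 1.64e-06) were higher with shBCL9, and PRDM1 (-0.22, adjusted p = 0.0117) and TNFRSF17 (-0.18, adjusted p = 0.0101) were lower. With miR-30, CD38 was the 1 of the 8 that was called (-0.29, adjusted p = 0.0204). Over all genes, 38.9% were called with shBCL9 and 3.26% with miR-30. Among tested markers of other cell types CD22 (0.25, adjusted p = 0.0142), NCAM1 (0.26, adjusted p = 0.00918) and KRT18 (0.50, adjusted p = 0.000114) were higher with shBCL9. The 5 T and NK cell markers summed to 746 to 838 in shBCL9 and 676 to 709 in shGFP arrays. NCAM1 made up most of that sum, at means of 9.40 in shBCL9 and 9.14 in shGFP arrays. In the same order CD3D averaged 5.56 and 5.50, and CD3E 5.39 and 5.51. The part of these markers in the results was not tested.

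With shBCL9, the survival gene MCL1 (-0.43) and the death gene BCL2L11 (-0.54) fell. PMAIP1 (0.54), BAX (0.43), BAK1 (0.38) and BID (0.23), which act in cell death, rose, as did the survival gene BCL2 (0.38). Each value is that of the probe set with the highest mean. The BCL2 and BID calls were lost under some of the alternatives given below. A probe set was tested when its value exceeded the array's 40th percentile in at least 3 arrays, which 31 of the 32 did (not BCL2 probe set 207005_s_at), and it was called at a Benjamini-Hochberg adjusted p under 0.05 in limma, adjusted over all 34381 probe sets tested. In the comparison of shBCL9 with shGFP, 22 of 31 probe sets of the family were called (71%), 11 higher and 11 lower, against 37.3% of all probe sets. By direction, 16.3% of all probe sets were called higher and 21% lower. For 25 of 31 the shBCL9 and shGFP values had no overlap, against 49.2% of all probe sets. The median difference over the 31 was 0.02, the same as the 0.02 over all probe sets. Read by the lead probe set, the one with the highest mean over the 12 arrays, 7 of 9 genes were called, 5 higher and 2 lower, against 38.9% of 14725 genes. With the ACTB 3' minus 5' signal as a covariate, 6 of 31 probe sets were called, against 16.6% of all probe sets, and those of PMAIP1 and BAK1 were not among them. BCL2L11 probe set 208536_s_at passed the filter only through shGFP arrays and 1 shBCL9 array, and BCL2L1 probe set 215037_s_at mainly through shBCL9 arrays, so the choice of group by which they passed favours their calls. The RNA is from bulk cells, so a smaller share of cells with a transcript and less of it per cell cannot be told apart.

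**Figure D1:**
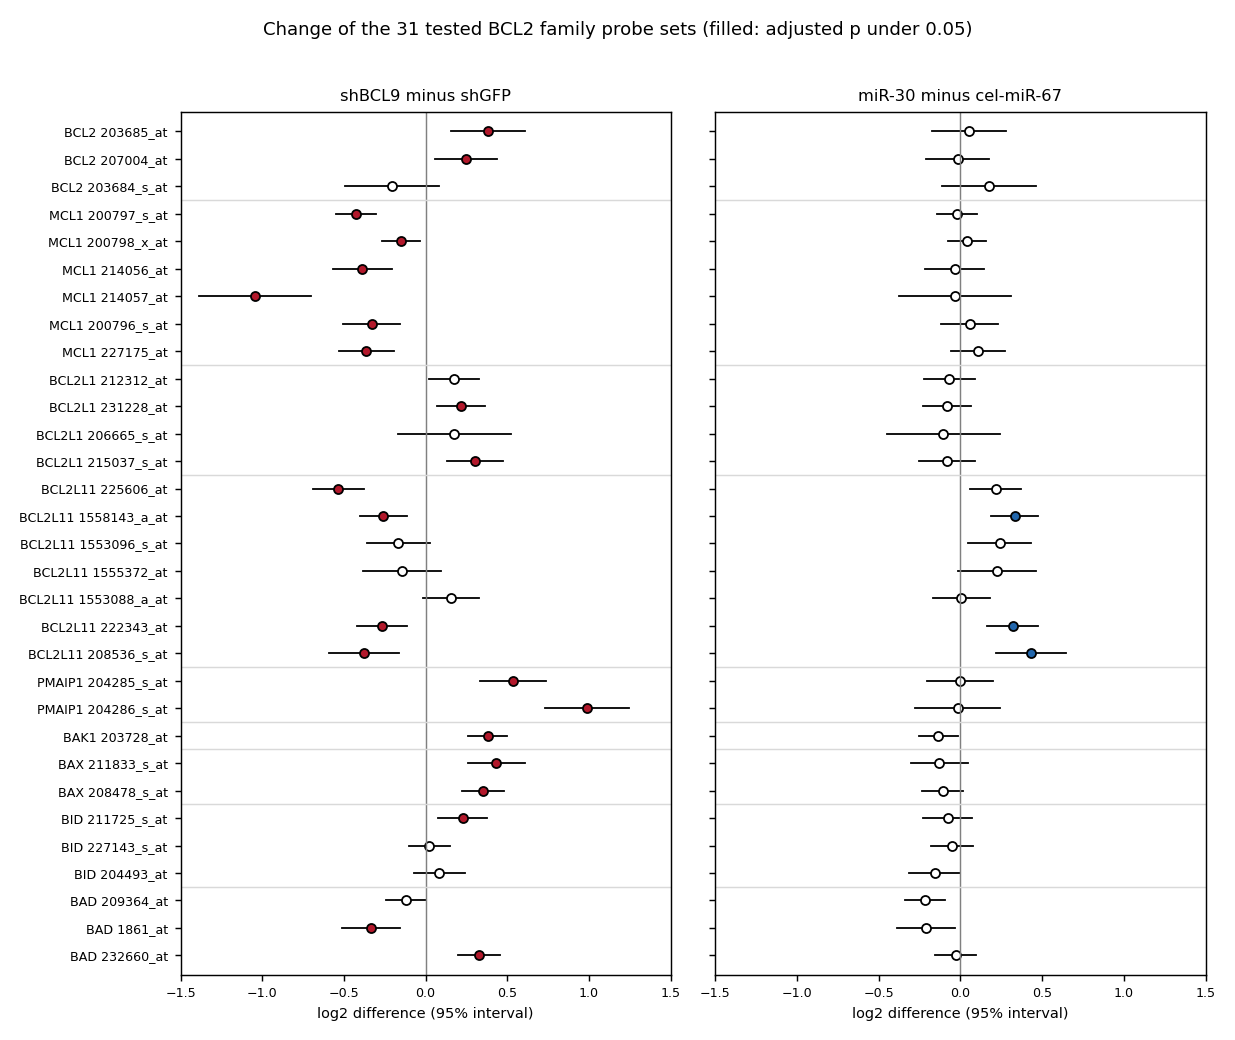
Log2 difference (x axis, with its 95% interval) of each of the 31 tested BCL2 family probe sets, grouped by gene, for shBCL9 minus shGFP on the left and miR-30 minus cel-miR-67 on the right. Filled points passed an adjusted p of 0.05. All 6 MCL1 probe sets lie left of 0 in the hairpin panel, and those of PMAIP1, BAK1, BAX, BCL2L1 and BID lie right of it. In the miR-30 panel 3 BCL2L11 probe sets are filled.

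MCL1 was lower with shBCL9 by each of its 6 probe sets. Its lead probe set, 200797_s_at, measured 12.56, 12.47 and 12.41 in the shBCL9 arrays, against 12.88, 12.90 and 12.93 in the shGFP arrays. Every shBCL9 array lay below every shGFP array, by a difference of -0.43 (95% interval -0.55 to -0.30, adjusted p = 8.76e-05), which is 1.34-fold. Probe set 214057_at measured 8.06, 8.26 and 7.46, against 8.89, 9.11 and 8.92 in shGFP arrays. This was the MCL1 probe set with the widest change, -1.05 (-1.39 to -0.70, adjusted p = 0.000236), or 2.07-fold, and also the one with the widest spread among shBCL9 arrays, 0.41 (SD), with replicate 3 the lowest. The other called probe sets fell by 0.39 (214056_at, adjusted p = 0.00317), 0.36 (227175_at, adjusted p = 0.0027) and 0.33 (200796_s_at, adjusted p = 0.00629). Probe set 200798_x_at, whose suffix marks probes that can match other transcripts, showed the smallest fall, 0.15 (adjusted p = 0.0429). Its call was lost without any 1 of the 6 arrays of the infected arm or without cel-miR-67 replicate 2 (adjusted p = 0.0533 to 0.139), and also without the filter (adjusted p = 0.0894) and with the 6 arrays of the comparison alone (adjusted p = 0.0656). The other 5 kept their calls without any single array.

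BCL2, the founding survival gene of the family, gave probe sets that did not move together. The lead probe set 203685_at measured 6.50, 6.53 and 6.33 with shBCL9, against 5.78, 6.21 and 6.24 with shGFP. It was higher by 0.38 (0.15 to 0.61, adjusted p = 0.0125), and shGFP replicate 1 was the lowest of the 6 arrays. Without that array the difference was 0.23, with the ACTB covariate it was -0.20 (adjusted p = 0.403), and the call ended with the 6 arrays of the comparison alone (adjusted p = 0.0514). Probe set 207004_at was higher by 0.25 (adjusted p = 0.0428), a call lost without any 1 of 8 arrays: shGFP replicates 2 and 3, and every replicate of shBCL9 and of cel-miR-67 (adjusted p = 0.0525 to 0.144), and also without the filter (adjusted p = 0.0649) and with arrays centred on their median (adjusted p = 0.0702). Probe set 203684_s_at differed by -0.21 with overlapping groups (adjusted p = 0.241). Probe set 207005_s_at stayed below the level required for testing in all arrays.

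BCL2L1, whose long product BCL-XL protects cells and whose short product does not, had 4 tested probe sets with positive differences, 2 of them called. The lead probe set 212312_at measured 8.49, 8.48 and 8.67 with shBCL9, against 8.38, 8.31 and 8.43 with shGFP, and missed the threshold at 0.17 (0.02 to 0.33, adjusted p = 0.0737) although the groups did not overlap. Probe set 231228_at rose by 0.22 (adjusted p = 0.0261), a call lost without any 1 of shGFP replicates 2 and 3 and shBCL9 replicates 2 and 3 (adjusted p = 0.0583 to 0.105). Probe set 215037_s_at rose by 0.30 (adjusted p = 0.00992) at means of 5.09 in shBCL9 arrays and 4.79 in shGFP arrays. These lay close to the level required for testing, which was 4.86 to 4.95 depending on the array. It passed the filter mainly through shBCL9 arrays, so its call adds no support. Probe set 206665_s_at differed by 0.18 (adjusted p = 0.408). The files do not say which product each probe set reads.

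BCL2L11, which encodes the BH3-only protein BIM, was called lower with shBCL9 by 4 of its 7 probe sets. Of the 4, 208536_s_at passed the filter only through shGFP arrays and 1 shBCL9 array, so it adds no support. The lead probe set 225606_at measured 8.02, 8.20 and 7.97 with shBCL9, against 8.56, 8.69 and 8.54 with shGFP. The 3 shBCL9 arrays were below the lowest shGFP array, with a difference of -0.54 (-0.69 to -0.38, adjusted p = 8.86e-05), or 1.45-fold. Probe set 208536_s_at fell by 0.38 (adjusted p = 0.0094) near the level required for testing, 222343_at by 0.27 (adjusted p = 0.0106) and 1558143_a_at by 0.26 (adjusted p = 0.00867). Of the 3 that were not called, 1553096_s_at differed by -0.17, 1555372_at by -0.15 and 1553088_a_at by 0.16. The last of these was the only BCL2L11 probe set with a positive difference, and its shBCL9 arrays, at 7.63, 7.34 and 7.61, overlapped the shGFP arrays at 7.39, 7.31 and 7.42.

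PMAIP1, the gene of NOXA, was higher with shBCL9 by both of its probe sets, neither of which was called with the ACTB covariate (differences of 0.17 and 0.57). Its lead probe set 204285_s_at measured 6.91, 7.21 and 6.99 with shBCL9, against 6.31, 6.68 and 6.52 with shGFP. It was higher by 0.54 (0.33 to 0.74, adjusted p = 0.000662), or 1.45-fold, in all 3 arrays. Probe set 204286_s_at measured 6.16, 6.43 and 6.03, against 5.14, 5.09 and 5.42 with shGFP, a rise of 0.99 (0.73 to 1.25, adjusted p = 3.56e-05), or 1.99-fold. NOXA and MCL1 are binding partners, and their probe sets moved in opposite directions in the same arrays.

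The effectors BAX and BAK1 rose as well. BAX probe set 211833_s_at measured 7.93, 8.0 and 7.80 with shBCL9, against 7.54, 7.30 and 7.59 with shGFP, a rise of 0.43 (0.26 to 0.61, adjusted p = 0.00116). BAX probe set 208478_s_at measured 7.59, 7.47 and 7.51, against 7.18, 7.18 and 7.15 with shGFP, a rise of 0.35 (adjusted p = 0.000507). BAK1, read by 203728_at alone, measured 8.45, 8.51 and 8.46, against 8.05, 8.09 and 8.13 with shGFP. It rose by 0.38 (0.26 to 0.50, adjusted p = 0.000172), or 1.30-fold, and every shBCL9 array lay above every shGFP array for all 3 of these probe sets.

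Among the remaining BH3-only genes the changes were small or mixed. BID, which is cut by caspase-8 to link death receptors to mitochondria, rose by 0.23 at its lead probe set 211725_s_at (adjusted p = 0.0209), where shBCL9 arrays measured 9.81, 9.84 and 9.81, against 9.54, 9.58 and 9.64 with shGFP. That call was lost without shGFP replicate 1, shGFP replicate 2 or shBCL9 replicate 2 (adjusted p = 0.0545 to 0.0616) and with arrays centred on their median (adjusted p = 0.0535), and its other probe sets differed by 0.02 (227143_s_at) and 0.08 (204493_at) and were not called. BAD, which is kept inactive by phosphorylation, had probe sets called in both directions: 1861_at fell by 0.34 (adjusted p = 0.00629) and 232660_at rose by 0.33 (adjusted p = 0.00089). Its lead probe set 209364_at measured 7.46, 7.44 and 7.43 with shBCL9, against 7.61, 7.51 and 7.57 with shGFP, a difference of -0.12 that was not called (adjusted p = 0.113).

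**Figure D2:**
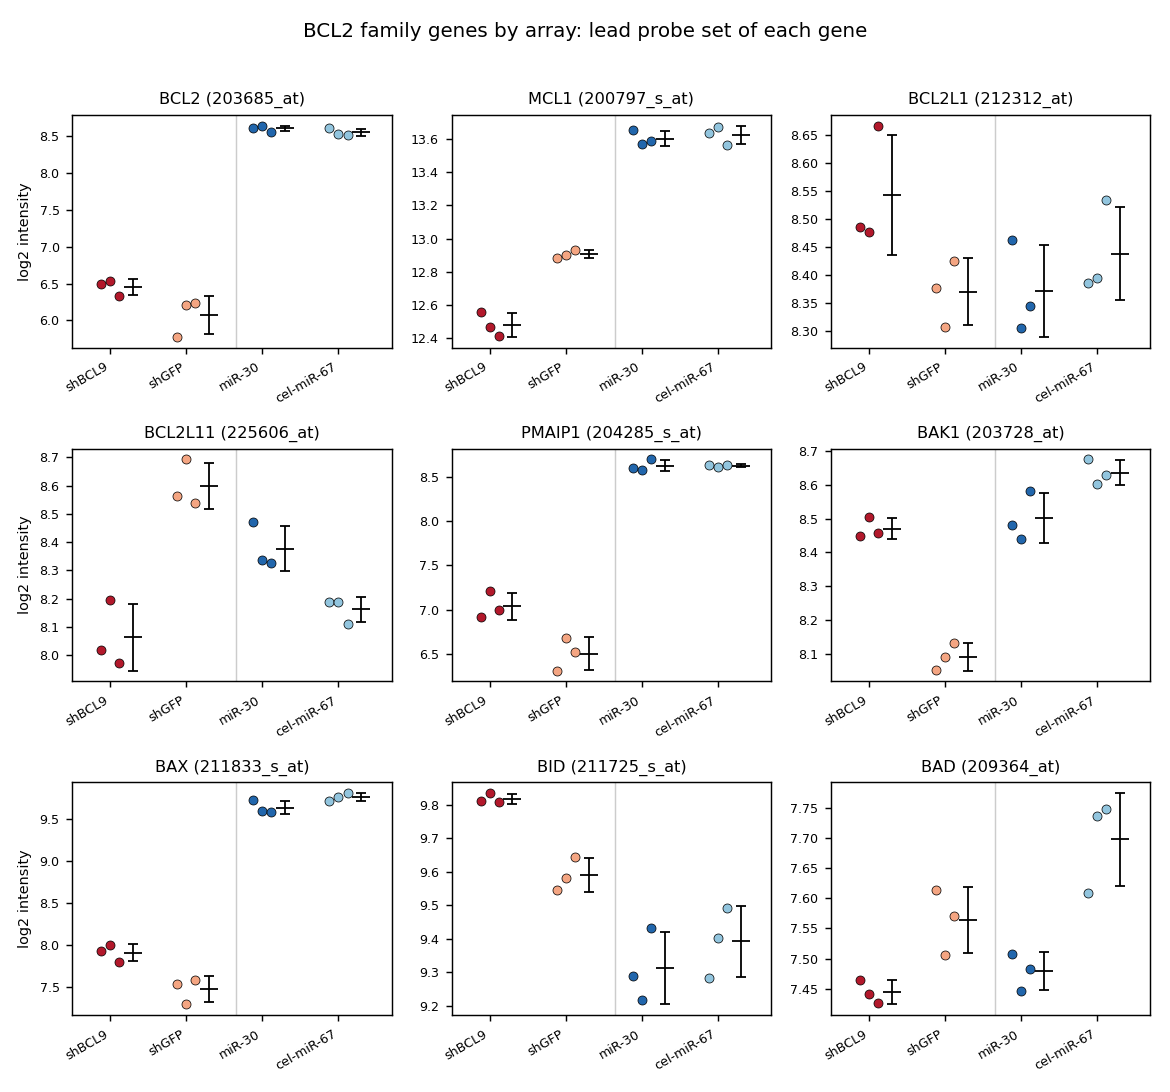
Log2 intensity (y axis, scaled separately for each gene) of the lead probe set of the 9 measured BCL2 family genes in each array, with the mean and SD of each group beside the points (n = 3). From left to right the groups are shBCL9, shGFP, miR-30 and cel-miR-67, and a line parts the arms. MCL1 and BCL2L11 are lower and BCL2, PMAIP1, BAX, BAK1 and BID higher in shBCL9 than in shGFP arrays. BCL2, PMAIP1 and BAX lie about 2 log2 units lower in shGFP than in cel-miR-67 arrays.

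The ACTB 3' minus 5' signal differed between shBCL9 and shGFP arrays, as given above, and the comparison was repeated with it as a covariate. That of GAPDH overlapped between these groups and was not used as a covariate. Called probe sets of the family then numbered 6 of 31, 2 higher and 4 lower, against 16.6% of all probe sets. The median standard error over the 31 was 0.177 with the covariate and 0.0793 without it, and 29 of 31 differences kept their sign. MCL1 remained lower by 200797_s_at (-0.56, adjusted p = 0.0117) and 214057_at (-1.58, adjusted p = 0.00889). Its other 4 probe sets lost their calls: 200798_x_at (-0.20, adjusted p = 0.287), 214056_at (-0.56, adjusted p = 0.0668), 200796_s_at (-0.20, adjusted p = 0.489) and 227175_at (-0.25, adjusted p = 0.364). BCL2L11 remained lower by 225606_at (-0.76, adjusted p = 0.00684) and 1558143_a_at (-0.53, adjusted p = 0.0191), and lost the calls of 222343_at (-0.20, adjusted p = 0.442) and 208536_s_at (-0.36, adjusted p = 0.31). BAX remained higher by 208478_s_at (0.45, adjusted p = 0.0407), and BCL2L1 probe set 206665_s_at was called with the covariate and not without it (0.93, adjusted p = 0.0477). The PMAIP1 probe sets were not called with it (204285_s_at 0.17, adjusted p = 0.554, and 204286_s_at 0.57, adjusted p = 0.134), nor was BAK1 (0.30, adjusted p = 0.127) or BAX probe set 211833_s_at (0.46, adjusted p = 0.118). BCL2 probe set 203685_at turned to -0.20 (adjusted p = 0.403).

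Promoter windows of BCL2L11, PMAIP1 and BAX are shown because these genes were called in this comparison and because their windows hold known regulatory motifs. Each window runs from 250 bases before to 50 after the annotated start in RefSeq on GRCh38.p14, and windows were held for 9 of the 10 genes, MCL1 being the exception. On both strands, 3 motifs were searched: the forkhead core GTAAACA, bound by FOXO factors, the cyclic AMP response core TGACGT, bound by ATF and CREB factors, and the E-box CACGTG, bound by MYC and related factors. Capitals mark the matches.
BCL2L11 promoter, chr2:111120664-111120963, + strand: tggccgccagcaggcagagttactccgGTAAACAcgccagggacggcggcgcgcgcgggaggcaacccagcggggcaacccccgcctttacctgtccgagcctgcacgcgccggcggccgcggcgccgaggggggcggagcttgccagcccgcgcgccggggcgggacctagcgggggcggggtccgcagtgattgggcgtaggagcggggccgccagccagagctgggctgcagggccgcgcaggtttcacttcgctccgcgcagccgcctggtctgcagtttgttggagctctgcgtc
PMAIP1 promoter, chr18:59899746-59900045, + strand: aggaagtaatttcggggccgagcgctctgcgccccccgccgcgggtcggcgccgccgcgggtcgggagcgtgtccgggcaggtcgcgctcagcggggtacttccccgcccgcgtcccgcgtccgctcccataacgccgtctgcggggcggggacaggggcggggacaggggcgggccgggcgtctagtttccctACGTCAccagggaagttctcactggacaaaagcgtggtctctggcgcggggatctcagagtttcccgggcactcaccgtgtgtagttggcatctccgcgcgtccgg
BAX promoter, chr19:48954625-48954924, + strand: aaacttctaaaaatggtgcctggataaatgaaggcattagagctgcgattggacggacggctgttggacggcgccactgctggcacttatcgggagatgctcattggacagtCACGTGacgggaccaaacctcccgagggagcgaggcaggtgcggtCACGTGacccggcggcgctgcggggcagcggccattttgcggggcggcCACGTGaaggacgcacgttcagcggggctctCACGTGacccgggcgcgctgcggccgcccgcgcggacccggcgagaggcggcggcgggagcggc
The BCL2L11 window held the forkhead core once, starting 223 bases before the start, and 3.42% of 35116 promoter windows hold it. No other member's window held it. Its letters are also those of the miR-30 seed, with T for U, which is a likeness of letters only. The PMAIP1 window held the cyclic AMP response core on the opposite strand (ACGTCA), starting 56 bases before the start, and both BAD windows, which overlap, held it too, against 7.98% of all windows. The BAX window held 4 E-boxes, 138, 93, 45 and 14 bases before the start. In BID, 2 of the 5 windows, which overlap, held the same E-box at 1 genomic site. The BBC3 window held 1, and 7.26% of all windows hold an E-box. These matches describe letters and show no binding in these cells.

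With miR-30, the probe sets of the family that were called were all of BCL2L11, and all were higher. In the comparison of miR-30 with cel-miR-67, 3 of 31 probe sets were called, all 3 higher. Over all probe sets 2.67% were called in either direction, 1.45% higher and 1.22% lower. The groups did not overlap for 8 of 31, against 22.9% of all probe sets. By lead probe set 0 of 9 genes were called, against 3.26% of all genes. The median difference over the 31 was -0.02, against -0.01 over all probe sets.

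BCL2L11 probe set 1558143_a_at measured 8.10, 8.05 and 8.04 with miR-30, against 7.84, 7.76 and 7.60 with cel-miR-67. It rose by 0.33 (0.19 to 0.48, adjusted p = 0.0231), or 1.26-fold. Probe set 222343_at measured 6.48, 6.26 and 6.31, against 6.04, 5.99 and 6.06 with cel-miR-67, a rise of 0.32 (adjusted p = 0.0354). Probe set 208536_s_at measured 4.71, 4.68 and 4.76, against 4.10, 4.49 and 4.27 with cel-miR-67, all below the level required for testing, and rose by 0.43 (adjusted p = 0.0399). In all 3 the miR-30 arrays lay above the cel-miR-67 arrays. The lead probe set 225606_at measured 8.47, 8.34 and 8.33, against 8.19, 8.19 and 8.11 with cel-miR-67. Its difference of 0.21 (0.06 to 0.37) did not pass the test (adjusted p = 0.139), nor did 1553096_s_at (0.24, adjusted p = 0.184), 1555372_at (0.23, adjusted p = 0.315) or 1553088_a_at (0.00, adjusted p = 0.984). None of the 7 probe sets was called lower.

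The 3 calls did not survive every change of the arrays or the fit. Without the filter the adjusted p was 0.0505 for 1558143_a_at, 0.0732 for 222343_at and 0.0685 for 208536_s_at, and with the 6 arrays of the comparison alone it was 0.0759, 0.0808 and 0.0736 in the same order. With the ACTB covariate 1558143_a_at kept its call (adjusted p = 0.00955), while 222343_at (adjusted p = 0.0785) and 208536_s_at (adjusted p = 0.0789) did not. The call of 208536_s_at also ended with further quantile normalization (adjusted p = 0.057) and with arrays centred on their median (adjusted p = 0.0549). The number of called probe sets was 0 without cel-miR-67 replicate 3 and without any 1 of the 3 miR-30 replicates, and 1 without shGFP replicate 2, cel-miR-67 replicate 1 or cel-miR-67 replicate 2. Over the single arrays left out that ended each call, the adjusted p was 0.054 to 0.079 for 1558143_a_at, 0.0555 to 0.132 for 222343_at and 0.0522 to 0.118 for 208536_s_at. The direction stayed positive in each of these. With all probe sets of a gene averaged, BCL2L11 was the 1 family gene called higher.

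**Figure D3:**
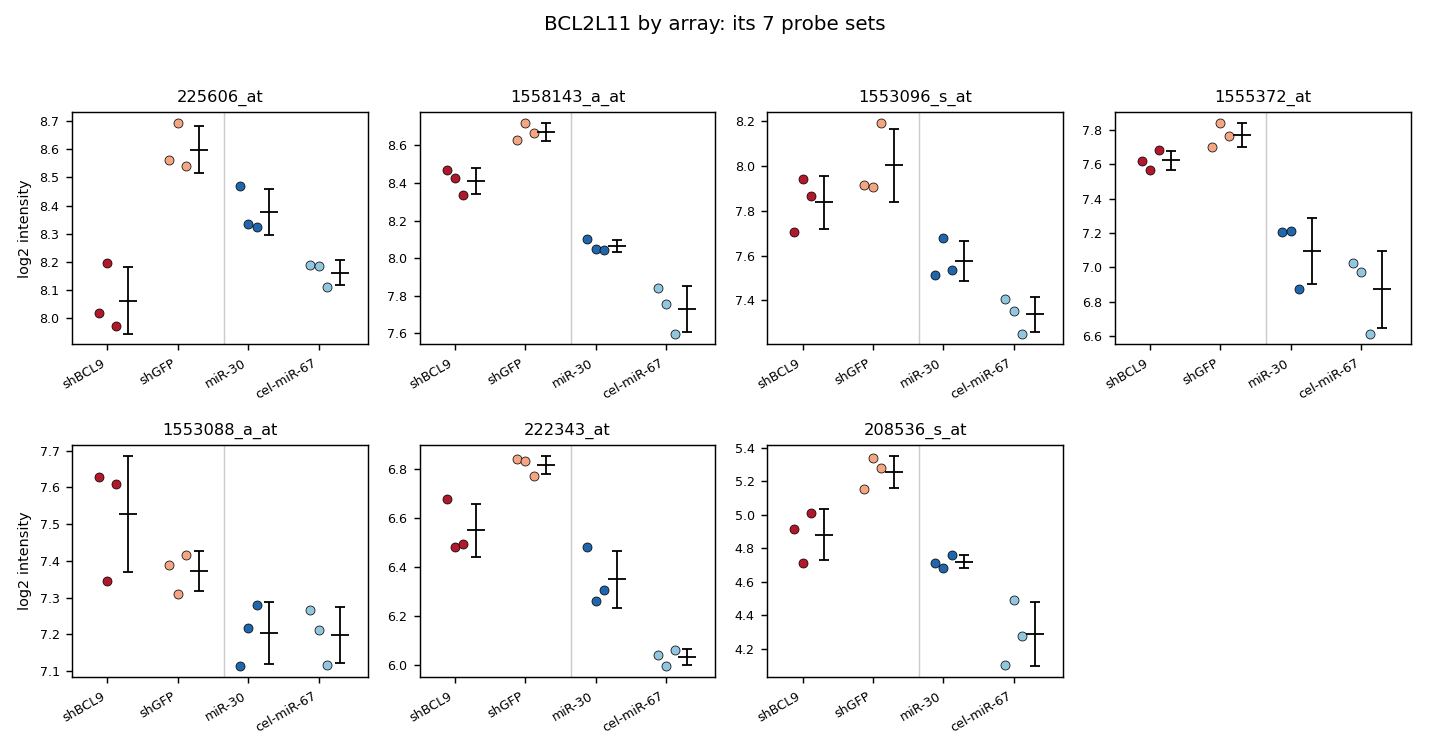
Log2 intensity (y axis, scaled separately for each panel) of the 7 BCL2L11 probe sets in each array, with the mean and SD of each group beside the points (n = 3), for shBCL9, shGFP, miR-30 and cel-miR-67 from left to right. In 6 of the 7 panels the shGFP group has the highest mean, and in 5 the miR-30 arrays all lie above the cel-miR-67 arrays.

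The survival genes and the effectors gave no call with miR-30. The lead probe set of MCL1 measured 13.66, 13.57 and 13.59 with miR-30, against 13.64, 13.68 and 13.57 with cel-miR-67, and its difference of -0.02 had an interval of -0.15 to 0.10. The 6 MCL1 probe sets differed by -0.04 to 0.11, the 3 of BCL2 by -0.02 to 0.17, and the 4 of BCL2L1 by -0.10 to -0.07. PMAIP1 measured 8.61, 8.58 and 8.70 with miR-30, against 8.64, 8.62 and 8.64 with cel-miR-67 at 204285_s_at, a difference of 0.00 (-0.20 to 0.20). BAK1 measured 8.48, 8.44 and 8.58 with miR-30, against 8.68, 8.60 and 8.63, without overlap, at -0.13 (adjusted p = 0.228). BAX differed by -0.13 and -0.11, and BID by -0.16 to -0.05. The BAD lead probe set 209364_at measured 7.51, 7.45 and 7.48 with miR-30, against 7.61, 7.74 and 7.75 with cel-miR-67, without overlap, and came nearest to the threshold among the probe sets not called (-0.22, interval -0.34 to -0.10, adjusted p = 0.0618). BAD was called lower when genes rather than probe sets were adjusted over, with array weights, and under the filter at the 60th percentile.

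The effects of the treatments were set against each other as the miR-30 effect minus the shBCL9 effect, in the same fit. This difference was called for 18 of 31 probe sets, 9 higher and 9 lower, against 21.7% of all probe sets (13% higher and 8.62% lower). By lead probe set it was called for 6 of 9 genes, against 23.2% of all genes (13.2% higher and 10% lower). It was positive for MCL1 (4 of 6 probe sets called, 0.39 to 1.01) and for BCL2L11 (5 of 7, 0.41 to 0.81). It was negative for both probe sets of PMAIP1 (-0.54 and -1.01) and of BAX (-0.56 and -0.46), and for BAK1 (-0.51). Among the 9 genes, BCL2L11 was the one with called changes of opposite sign in the 2 treatments: 1558143_a_at and 222343_at were each called lower with shBCL9 and higher with miR-30, with differences of effects of 0.59 and 0.58 (adjusted p = 0.000741 and 0.0012). Probe set 208536_s_at had the same pair of calls and a difference of 0.81 (adjusted p = 0.00124), but its 6 values in the transfected arm lay below the level required for testing and it passed the filter mainly through the shGFP arrays, so it adds no support. The miR-30 call of each was lost under some of the alternatives given above. With the ACTB covariate the difference of effects was called for 4 of 31 probe sets of the family, against 9.4% of all probe sets.

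Some members of the family started at different levels in the control groups of the arms. These groups differ in virus or transfection, in hairpin or microRNA and in the sort. Their parts cannot be told apart, and no test was made. Both BAX probe sets were lower in shGFP than in cel-miR-67 arrays, at means of 7.48 and 9.76 for 211833_s_at (-2.28) and 7.17 and 9.38 for 208478_s_at (-2.21). PMAIP1 averaged 6.50 in shGFP arrays and 8.63 in cel-miR-67 arrays at 204285_s_at (-2.13), and 5.22 and 7.20 at 204286_s_at (-1.98). BCL2 averaged 6.07 in shGFP arrays and 8.55 in cel-miR-67 arrays at 203685_at (-2.47), while its probe sets 207004_at (-0.02) and 203684_s_at (-0.16) overlapped. A gap of at least 2 log2 units was seen in 4 of 31 probe sets of the family, each from BAX, PMAIP1 or BCL2, against 1.24% of all probe sets. BCL2L11 went the other way, with all 7 probe sets higher in shGFP than in cel-miR-67 arrays (0.17 to 0.97) and no overlap in any. Groups did not overlap for 21 of 31 probe sets, 12 higher and 9 lower in shGFP, which is close to the 62.7% of all probe sets.

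Put in order, the groups ran the same way for both probe sets of PMAIP1 and of BAX: shGFP lowest, then shBCL9, then miR-30 and cel-miR-67, with overlap only between the last pair. The rise of these genes with shBCL9 left them below the transfected arm, at 7.04 in shBCL9 and 8.63 in cel-miR-67 arrays for PMAIP1 probe set 204285_s_at and at 7.91 and 9.76 for BAX probe set 211833_s_at. For the MCL1 lead probe set the order was shBCL9, shGFP, miR-30 and cel-miR-67, again with overlap only between the last pair. MCL1 probe sets 200798_x_at (-0.40) and 214056_at (-0.37) were also lower in shGFP than in cel-miR-67 arrays, without overlap. In contrast, 214057_at was higher in shGFP arrays without overlap (0.28), and 200796_s_at (-0.09) and 227175_at (0.07) overlapped. For BCL2L11 probe sets 1558143_a_at and 222343_at it was cel-miR-67, miR-30, shBCL9 and shGFP, with no overlap between neighbours. For the BCL2L1 lead probe set every pair of neighbours overlapped, and the means spanned 0.17.

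The 12 other genes of the BCL2 family were also measured. With shBCL9, 2 were called higher and 4 lower by lead probe set, against 17.1% and 21.8% of all genes. The median difference was -0.16, against 0.03 over all genes. With miR-30, 1.76% of all genes were called higher and 1.5% lower. BMF, a BH3-only gene of cytoskeletal stress, fell by 0.34 (adjusted p = 0.0013), and BNIP3L, a mitophagy receptor, fell by 0.21 (adjusted p = 0.0101). HRK fell by 0.26 (adjusted p = 0.022) at its lead probe set, while its 4 tested probe sets differed in sign, from -0.26 to 0.15. BCL2L14 rose by 0.24 (adjusted p = 0.0228). BNIP3, the paralog of BNIP3L and a hypoxia gene, rose by 0.22 with shBCL9 (adjusted p = 0.0229) and fell by 0.35 with miR-30 (adjusted p = 0.0189), where it was the 1 gene of the 12 that was called.

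**Figure D4:**
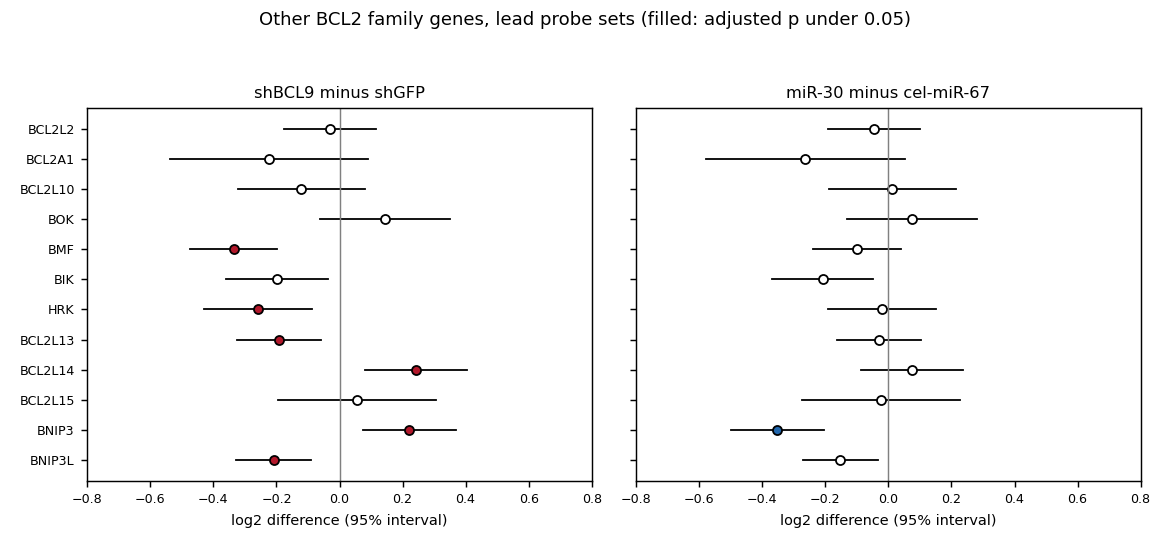
Log2 difference (x axis, with its 95% interval) of the lead probe set of 12 other BCL2 family genes for shBCL9 minus shGFP on the left and miR-30 minus cel-miR-67 on the right, with called genes filled. BMF lies lowest among the called genes of the hairpin panel (-0.34), and BNIP3 is the filled gene of the miR-30 panel (-0.35).

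Of 10 apoptosome and caspase genes, 3 fell with shBCL9 and 0 rose, against 21.8% and 17.1% of all genes. CASP10, an initiator caspase of death receptors, fell by 0.53 (adjusted p = 7.06e-06) and CASP8 by 0.29 (adjusted p = 0.00709). CASP9, the apoptosome's initiator, fell by 0.20 (adjusted p = 0.0241) at its lead probe set, and its other probe set differed by 0.08. With miR-30, DFFA, which encodes the inhibitor of the caspase-activated DNase, fell by 0.24 (adjusted p = 0.0412). Of 10 mitochondrial factors, 4 were called with shBCL9, against 38.9% of all genes, and 0 with miR-30. VDAC1 (0.36, adjusted p = 7.76e-05) and VDAC2 (0.19, adjusted p = 0.00874), channels of the outer membrane, rose with shBCL9, and DNM1L (-0.22, adjusted p = 0.0147) and ENDOG (-0.20, adjusted p = 0.0456) fell. Of 5 inhibitor of apoptosis genes, 1 was called with shBCL9 and 1 with miR-30, against 38.9% and 3.26% of all genes. BIRC2 fell with shBCL9 (-0.15, adjusted p = 0.03) and BIRC5, which encodes survivin, rose with miR-30 (0.34, adjusted p = 0.00914).

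Of 8 genes for the turnover of the MCL1 protein, 2 rose and 2 fell with shBCL9, against 17.1% and 21.8% of all genes. The deubiquitinase gene USP13 rose by 0.41 (adjusted p = 0.000894) and the anaphase regulator CDC20 by 0.24 (adjusted p = 0.0112). The ubiquitin ligase gene FBXW7 fell by 0.32 (adjusted p = 0.00351), and BTRC fell by 0.44 (adjusted p = 0.000135) at its lead probe set, with its 4 tested probe sets running from -0.44 to 0.20. With miR-30 CDC20 rose by 0.63 (adjusted p = 0.000485). Of 15 BAD kinase and 14-3-3 genes, 4 rose and 4 fell with shBCL9, against the same 17.1% and 21.8%. With miR-30, 0 of these genes were called. PIM2, a kinase abundant in myeloma that phosphorylates BAD, fell by 1.03 (adjusted p = 4.02e-08), at 10.81 in shBCL9 and 11.84 in shGFP arrays. PRKACA, the catalytic subunit of protein kinase A, rose by 0.53 (adjusted p = 0.000123), RPS6KA1 fell by 0.41 (adjusted p = 0.000794) and the 14-3-3 gene YWHAB fell by 0.20 (adjusted p = 0.00611).

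Of 11 transcriptional regulators of BH3-only genes, 3 rose and 2 fell with shBCL9, against 17.1% and 21.8% of all genes. ATF3 rose by 0.94 (adjusted p = 4.67e-07) and DDIT3 (CHOP) by 0.71 (adjusted p = 9.97e-06), both stress-induced factors known to act on BH3-only genes. MYC fell by 0.34 (adjusted p = 0.00195), and JUN fell by 1.17 (adjusted p = 2.8e-07) at its lead probe set, with its 3 tested probe sets running from -1.17 to 0.02. With miR-30 JUN rose by 0.38 (adjusted p = 0.0269). ATF3 and DDIT3 were also lower in the infected arm, at means of 6.57 in shGFP and 10.44 in cel-miR-67 arrays for ATF3 and 7.76 and 11.31 for DDIT3. The IL-6 receptor and STAT3 pathway maintains MCL1 in myeloma cells. Of its 9 tested genes, 2 fell and 0 rose with shBCL9, against 21.8% and 17.1% of all genes. These were JAK2 (-0.52, adjusted p = 0.000191) and JAK1 (-0.28, adjusted p = 0.00154). SOCS3 was not called at its lead probe set (0.11, adjusted p = 0.385), while its 3 tested probe sets ran from -1.85 to 0.11. STAT3 fell with miR-30 (-0.30, adjusted p = 0.027). For genes called by lead probe set the shares over all genes were 17.1% higher and 21.8% lower with shBCL9, and 1.76% higher and 1.5% lower with miR-30.

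Over the 12 arrays, each arm centred on its mean, the genes whose lead probe set was most like that of MCL1 were ZNF449 (Pearson r = 0.990), CGGBP1 (0.987) and CFAP44 (0.986). For PMAIP1 they were NOC4L (0.973), FBN1 (0.959) and DGKG (0.945). For BCL2L11 they were DAPK1 (0.991), ADNP2 (0.981) and MXI1 (0.979). These values are descriptions over arrays that share a normalization and the contrast of shBCL9 with shGFP, and DAPK1 differed by -0.61 with shBCL9 and 0.25 with miR-30.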

How the data were processed

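RNA was extracted with Trizol and biotin-labelled with a 3' in vitro transcription kit, per the labels' protocols. The values are deposited log2 intensities that the authors made with RMA and the affy package, whose versions are not given in the submitters' processing notes, and no further normalization was applied. The platform annotation gave 1 gene symbol for 41097 of 54675 probe sets, several for 1801 and no listed gene for 11777. Names were taken only from probe sets with 1 symbol, and 41043 of these had a gene ID that matched a RefSeq table (GRCh38.p14), which changed 0 symbols.

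The model in limma 3.58.1 (lmFit and eBayes, R 4.3.3) had 1 mean for each group over the 12 arrays. It covered the 34381 probe sets that passed the filter, after 62 control probe sets were left out, with Benjamini-Hochberg adjustment over all of them. All adjusted p-values are limma's. Arrays give no read depth, and the 3 arrays of a group limit the precision: an exact permutation test of 3 against 3 could not give a p below 0.1. The script was tested on simulated data. Figures were drawn with matplotlib 3.10.9 under Python 3.11.15.

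The text names every probe set of the members, BCL9, up to 4 called genes of each list and treatment by adjusted p, and for MCL1, PMAIP1 and BCL2L11 the 3 genes with the highest Pearson r over the arrays. BNIP3 is named for its miR-30 call, and PRDM1, outside this rule, as the remaining called plasma cell marker, chosen after its value was seen. SOCS3, for the range of its probe sets, and the uncalled cell type markers are also named outside this rule. The members, lists and tests were chosen with earlier results of these data known. Alternatives changed the filter, the probe sets used, the normalization, the arrays fitted, the weights, the variance model, the threshold, the summary of a gene, a replicate block, an ACTB covariate, and left out each array in turn.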

Additional observations from a re-analysis of the deposited data

Results flagged for a closer look

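The miR-30 effect (miR-30 minus cel-miR-67) was tested against the shBCL9 effect (shBCL9 minus shGFP) in limma. The effects differed for 18 of the 31 tested probe sets, against 21.7% of all probe sets. With the ACTB covariate they differed for 4 of 31, against 9.4% of all probe sets. The values below are those without the covariate. Positive values mean that the miR-30 effect was the higher. For MCL1 the differences of the effects were 0.40 at 200797_s_at (adjusted p = 0.00341), 1.01 at 214057_at (adjusted p = 0.00645), 0.39 at 200796_s_at (adjusted p = 0.0285) and 0.47 at 227175_at (adjusted p = 0.00851). For BCL2L11 they were 0.75 at 225606_at (adjusted p = 0.000221), 0.59 at 1558143_a_at (adjusted p = 0.000741), 0.41 at 1553096_s_at (adjusted p = 0.0362), 0.58 at 222343_at (adjusted p = 0.0012) and 0.81 at 208536_s_at (adjusted p = 0.00124), the last of which lay below the level required for testing in all 6 arrays of the transfected arm.

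Negative differences were found for PMAIP1, with -0.54 at 204285_s_at (adjusted p = 0.0114) and -1.01 at 204286_s_at (adjusted p = 0.000996), for BAX, with -0.56 at 211833_s_at (adjusted p = 0.00391) and -0.46 at 208478_s_at (adjusted p = 0.00173), and for BAK1, with -0.51 (adjusted p = 0.000518). For BCL2L1 they were -0.30 at 231228_at (adjusted p = 0.0452) and -0.39 at 215037_s_at (adjusted p = 0.0271). BID had -0.31 at 211725_s_at (adjusted p = 0.0406) and BAD had -0.36 at 232660_at (adjusted p = 0.00891). The arms also differ in delivery, sorting and ACTB 3' to 5' signal, which cannot be told apart from the treatments in this contrast.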

How the results depend on the processing

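In the comparison of shBCL9 with shGFP the 22 called probe sets became 11 of 15 with plain probe sets only and 6 with the ACTB covariate, and the 7 called genes became 3 of 5 and 2. Leaving out 1 array gave 18 to 22 probe sets and 6 to 7 genes. Called differences of the effects numbered 18 of 31, against 21.7% of all probe sets. With the covariate they numbered 4 of 31, against 9.4% of all probe sets. They numbered 6 of 15 on plain probe sets and 13 to 20 with 1 array left out. With miR-30 the 3 called probe sets became 0 without a filter, with the 6 arrays of the comparison alone or at an adjusted p under 0.01, 1 on plain probe sets or with the covariate, and 0 to 3 with 1 array left out. The 0 called genes became 1 under the stricter filter, with array weights, with adjustment over genes, and as the mean of probe sets. Other counts stayed within 1.5 times of those reported; the causes were not tested. Deviations of same-numbered arrays correlated weakly and positively (r = 0.06, 0.10 and 0.07 in the infected arm, 0.18, 0.09 and 0.28 in the transfected arm). In the same order, 6 of 6 and 5 of 6 arrays correlated best with their own number. The main fit did not use this pairing. With a replicate block the calls numbered 21 with shBCL9 (7 genes), 1 with miR-30 and 19 for the difference of effects.

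A called value changed sign once, at BCL2 203685_at with the covariate (-0.202). Uncalled values that turned with shBCL9 were BID 227143_s_at with median centring (-0.00755) and BID 204493_at with the covariate (-0.152). With miR-30 they were PMAIP1 204285_s_at with quantile normalization (0.0285), BCL2L11 1553088_a_at with median centring (-0.0106) and MCL1 as a mean of probe sets (0.0182). With the covariate they were MCL1 200797_s_at (0.00722), 214056_at (0.00124) and 214057_at (0.0829), BCL2L11 1553088_a_at (-0.0101), and PMAIP1 204285_s_at (0.0787) and 204286_s_at (0.0741). With 1 array left out, the miR-30 difference ran from -0.0370 to 0.0241 at PMAIP1 204285_s_at and -0.112 to 0.0576 at 204286_s_at, from -0.0522 to 0.00228 at MCL1 200797_s_at, -0.110 to 0.000981 at 214056_at, -0.0845 to 0.0537 at 214057_at and -0.0391 to 0.113 at 200796_s_at. It ran from -0.250 to 0.0572 at BCL2L1 206665_s_at, -0.0367 to 0.0498 at BCL2L11 1553088_a_at, -0.132 to 0.0456 at BCL2 207004_at and -0.0886 to 0.00594 at BID 227143_s_at.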
